A study of Mus musculus with 26 samples.

Results

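Messenger RNA levels of 36 endoplasmic reticulum genes for protein folding and secretion were read in T cells sorted from Peyer's patches, the lymphoid follicles of the small intestinal wall, of C57Bl/6 mice. The members were chosen by gene symbol, and all 36 were found among the 25814 genes of each of the 26 deposited tables. They fall into 7 roles: 5 chaperones, 6 co-chaperones and small stress-responsive luminal proteins, 5 enzymes of disulfide and proline folding, 2 stress sensors, 7 components of ER-associated degradation, 7 subunits of the translocation machinery and 4 of the signal peptidase. The first comparison set CD4+ T cells from the elemental diet (n = 6) against those from the conventional diet (n = 6), with 22 ng of RNA per poly(A) library. An elemental diet supplies amino acids in place of intact protein, and the series asks how dietary antigen bears on T cell expression. The second comparison set CD44+ T cells (n = 7) against CD44- T cells (n = 7), all from mice on the conventional diet, with 1 ng of RNA per library and a low-input kit. CD44 is a surface glycoprotein whose level goes up when a T cell is activated. The labels state neither age nor sex. They also leave unsaid if CD4 was part of the gate for the CD44 sorts and if replicates were separate animals. Where they were not, p-values cover only the spread among these libraries, which may be technical. Since kit and sorted population cannot be told apart between the 2 pairs of groups, CD4+ libraries were not tested against CD44 libraries.

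Proteins bound for the cell surface or for secretion enter the endoplasmic reticulum through the Sec61 channel, lose their signal peptide to the signal peptidase and are folded by chaperones and disulfide isomerases. Chains that fail to fold are sent back to the cytosol for destruction by ER-associated degradation. When unfolded chains build up, the sensors IRE1 (encoded by Ern1), ATF6 and PERK start the unfolded protein response, which raises many of these same genes. Plasma cells, the antibody-secreting end stage of B cells, hold very high levels of this machinery, whereas resting T cells hold modest levels.

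The DNA elements through which ATF6 and XBP1 are known to act on chaperone genes were looked for in the promoters of the members, to see which members share them. RefSeq promoter windows (GRCm38.p6, from 250 bases before to 50 bases after the start) were at hand for 28 of the 36 members, and both strands were searched. The ER stress element, ERSE, was searched as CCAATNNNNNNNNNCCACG and was found in 8 of the 28 members (28.6%), against 37 of 27025 genes in the whole table (0.137%). The second element, ERSE-II, was searched as ATTGGNCCACG and was found in 2 of the 28 (7.14%), Dnajb11 and Herpud1, against 0.0444% of all genes. The unfolded protein response element, searched as TGACGTGG, was in 0 of the 28 and in 0.714% of all genes. Of 113 genes of the same pathway outside the 36, 92 had a window. Among these 92, the first element was in 1 (1.09%), the second in 1 (1.09%) and the third in 10 (10.9%). The first and second elements share the letters CCACG, whose reverse complement lies in the third, and no member held both the first and the second. The elements are known to act on chaperone genes, and chaperone genes are among the members. A higher share in the members than over all genes, which include them, is thus no finding of these data. A match is a description of letters in a window and not a tested binding site. The runs below show each ERSE of the members with 10 bases on either side, then the ERSE-II of Herpud1. Capitals mark the fixed letters of each motif, and the sign after the coordinates is the strand printed.
Hspa5, chr2:34772015-34772053 (+): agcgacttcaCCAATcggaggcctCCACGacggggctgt
Hsp90b1, chr10:86705628-86705666 (-): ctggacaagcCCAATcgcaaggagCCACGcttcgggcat
Hsp90b1, chr10:86705523-86705561 (+): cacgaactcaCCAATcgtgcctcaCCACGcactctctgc
Calr, chr8:84847065-84847103 (+): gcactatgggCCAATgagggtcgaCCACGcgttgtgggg
Canx, chr11:50325790-50325828 (-): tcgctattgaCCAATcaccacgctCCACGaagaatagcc
Dnajc3, chr14:118937817-118937855 (+): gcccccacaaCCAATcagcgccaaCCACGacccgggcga
Creld2, chr15:88819510-88819548 (-): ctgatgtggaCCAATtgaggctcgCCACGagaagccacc
Pdia6, chr12:17266481-17266519 (+): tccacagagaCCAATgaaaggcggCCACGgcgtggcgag
Syvn1, chr19:6046522-6046560 (+): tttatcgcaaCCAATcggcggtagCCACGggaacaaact
Herpud1, chr8:94386367-94386397 (+): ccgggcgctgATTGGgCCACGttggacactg
Hspa5, the chaperone most often used as the readout of ER stress, carried its element 65 bases before the start, and Hsp90b1 carried 2 elements on opposite strands. Of the 5 chaperones, 4 (Hspa5, Hsp90b1, Calr and Canx) are in this set, whereas none of the translocation or signal peptidase genes with a window is.

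CD4+ libraries held 16401589 to 25415205 exon reads and CD44 libraries 7180390 to 13378353. Levels are exon reads as CPM, which scales each library to the same depth, here with TMM factors that even out differences in composition. Introns took 3.33% to 4.61% of the gene reads of a CD4+ library but 9.40% to 29.0% of those of a CD44 library. The labelled cell types were checked against marker genes: the 13 alpha-beta T cell markers summed to 4410 to 5442 CPM in CD4+ and 10250 to 16500 CPM in CD44 libraries, and none was at 0 throughout a group. Cd4 had a median of 356 CPM on the conventional and 255 CPM on the elemental diet, and was called lower on the latter (-0.56 ± 0.16, adjusted p = 0.0250 by edgeR). Cd44 was lower there too, with medians of 138 and 89.3 CPM (-0.60 ± 0.12, adjusted p = 0.00339 by edgeR). Among the CD44 libraries, Cd44 ran from 89.2 to 362 CPM in CD44+ and from 47.5 to 139 CPM in CD44- libraries, which overlap. Cd4 itself ran from 12.5 CPM to 69.55 CPM (median 28.8) in CD44+ and from 38.5 to 482 CPM (median 91.5) in CD44- libraries. Neither gene was called between these sorts. Cd44 had 0.95 ± 0.40 (adjusted p = 0.303 by edgeR) and Cd4 had -2.10 ± 0.57 (adjusted p = 0.0950 by edgeR). Markers of other cells were present in all groups and moved with both comparisons, and their values stand beside the results below.

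No member was at 0 reads in any library, and all 36 passed the filter on low counts in both comparisons. Compared per kilobase of exon, levels in conventional-diet CD4+ T cells spanned from 517 ± 106 CPM per kb (SD, n = 6) for Ppib, which encodes the ER proline isomerase cyclophilin B, to 1.12 ± 0.41 for the sensor Atf6. The Sec61 subunit Sec61b (267 ± 64 CPM per kb), the calcium-binding lectin chaperone Calr (243 ± 15), the translocon-associated subunit Ssr4 (220 ± 53) and the signal peptidase subunit Sec11c (170 ± 37) followed. Sec61b, Calr and Ssr4 do not differ in level beyond their spread. Both sensors closed the order, with Ern1 at 1.16 ± 0.36 CPM per kb. In CD44+ libraries Ssr4 led with 693 CPM per kb, followed by the signal peptidase subunit Spcs1 with 644 and by Sec61g with 540. The fewest reads behind any member's value were 63 in a CD4+ library and 5 in a CD44 library.

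**Figure D1:**
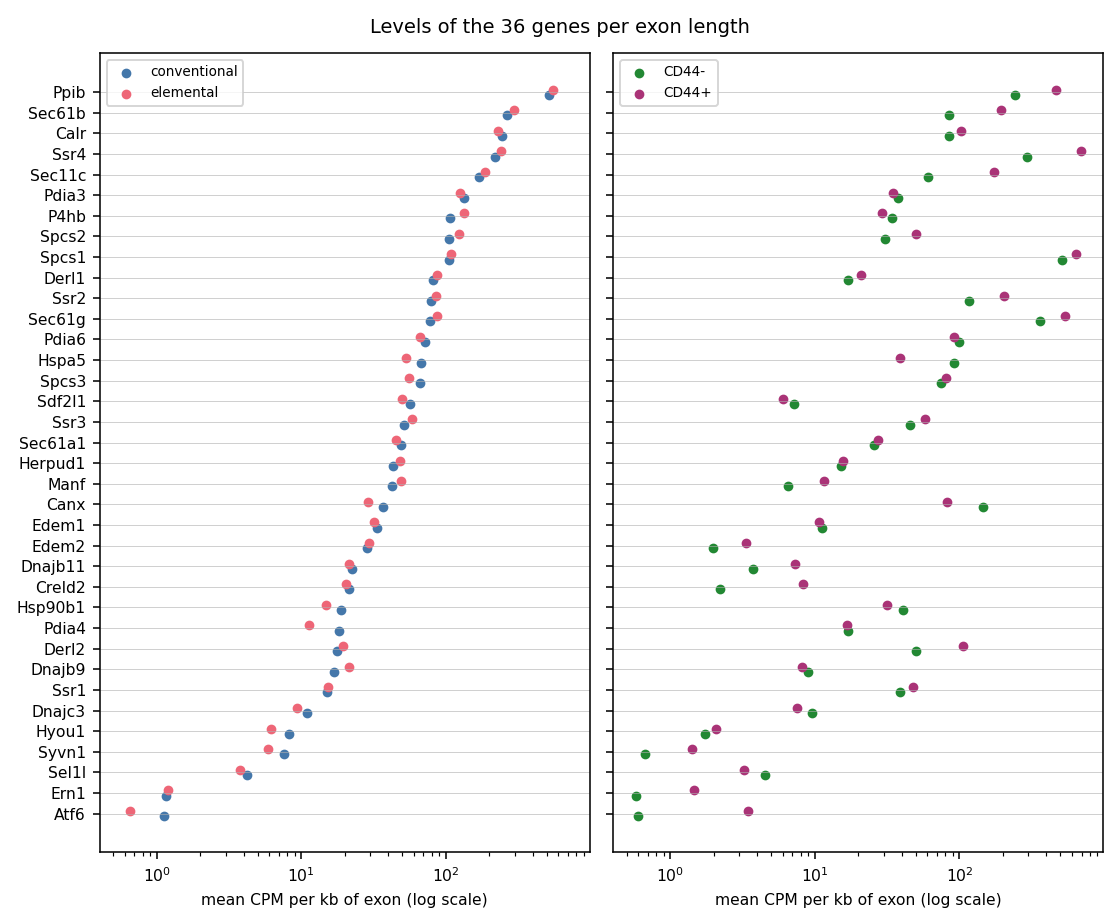
Mean level of each of the 36 genes per kilobase of exon, on a log axis, with conventional and elemental CD4+ libraries (n = 6 each) on the left and CD44- and CD44+ libraries (n = 7 each) on the right; genes are ordered by their conventional CD4+ level. Ppib lies highest and Atf6 lowest in conventional CD4+ libraries, and the points of the diets lie closer together than those of the CD44 groups.

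Some of these levels carry a limit from read matching. Only 5.00% of the Sec61g exon reads in conventional CD4+ libraries matched a single place in the genome, against 52.7% for Ppib, 71.3% for Sec61b, 78.8% for Derl1 and 85.8% for Dnajb9. Levels of these genes are uncertain, because reads from near-identical copies may be counted with them. Exon reads of some members rarely crossed an exon junction in CD44 libraries. For Canx the share was 27.6% in conventional CD4+, 2.57% in CD44+ and 3.43% in CD44- libraries, and for Ssr1 19.0%, 0.622% and 0.926%. For Pdia3 it was 39.3%, 36.5% and 38.0%. The cause was not tested, and CD44 levels of Canx and Ssr1 per kilobase of whole exon length carry this limit. Counting was not stated to use strand, and Pdia3, Pdia6, Ppib, Syvn1, Derl2, Manf and the signal peptidase genes Spcs1, Spcs2 and Spcs3 overlap another gene, so their reads cannot be told apart from those of that neighbour where exons overlap.

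The spread between libraries was far smaller in the CD4+ groups. The coefficient of variation of a member had a median of 16% on the conventional and 11.3% on the elemental diet (21.5% and 20.1% over all genes tested). It had a median of 56.5% in CD44- and 52.6% in CD44+ libraries (80.4% and 82.8% over all genes tested). Sec61a1, the channel-forming subunit, was the steadiest member on the conventional diet (3.87%), and Ern1 varied the most in both CD44 groups (155% and 161%).

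In CD4+ T cells, the elemental diet went with small changes in opposite directions and not with a shift of the whole set. The co-chaperone Dnajb9 and the disulfide isomerase P4hb rose, and the disulfide isomerase Pdia4, the lectin chaperone Canx and the signal peptidase subunit Spcs3 fell. These were 5 of 36 members (13.9%), against 17.4% of the 11938 genes tested, with edgeR's quasi-likelihood test and a Benjamini-Hochberg adjusted p under 0.05. The share called among the members is thus near, and below, that of all genes. With library totals in place of TMM, 0 members were higher and 3 lower, and the median of all genes moved to -0.13. The median log2 fold change, positive where the elemental diet is higher, was -0.02 over the members and -0.01 over all genes tested, with 18 members above 0 and 18 below. At an unadjusted edgeR p under 0.05 there were 4 higher and 6 lower members, against 2040 higher and 1994 lower of the 11938 genes. Summed over the members, levels were 5608 ± 423 CPM on the conventional and 5692 ± 235 CPM on the elemental diet (SD, n = 6 each), which overlap.

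**Figure D2:**
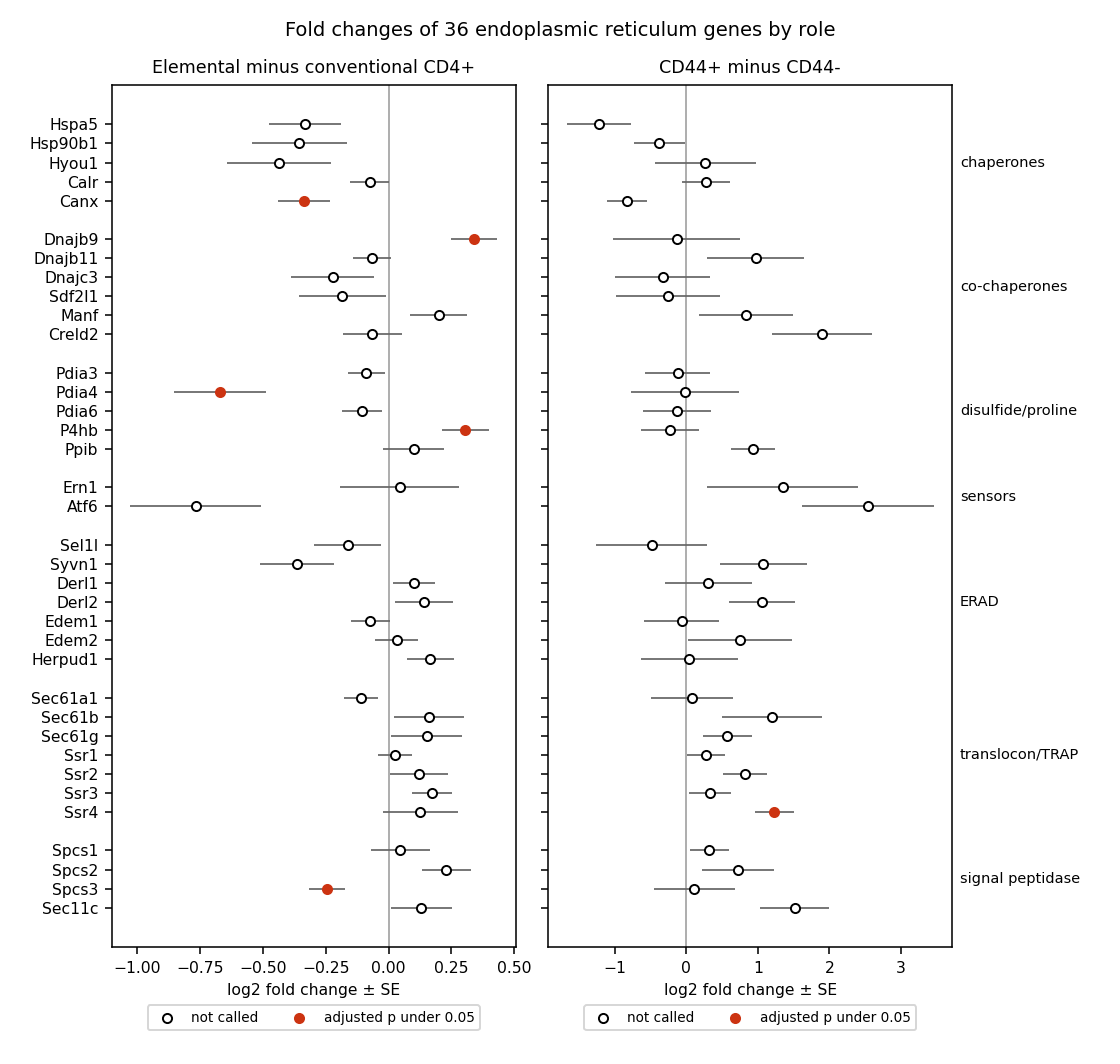
Log2 fold change with its standard error for the 36 genes, grouped by role, for elemental against conventional CD4+ libraries (left, n = 6 each) and CD44+ against CD44- libraries (right, n = 7 each); filled points have an adjusted p under 0.05 and the horizontal scales differ. All 5 chaperones lie left of 0 in the diet comparison, and all 7 translocation genes lie right of 0 in the CD44 comparison, where Ssr4 is the filled point.

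All 5 chaperones had lower estimates on the elemental diet, with a median log2 difference of -0.34, and 1 of them passed the test. Their estimates were below 0 under each of the 24 settings tried, with medians from -0.46 to -0.25. Canx, the membrane-bound calnexin that holds glycoproteins until they are folded, ran from 126 to 185 CPM on the conventional diet with a median of 157, and from 108 to 144 CPM on the elemental diet with a median of 123. The groups overlapped, though each of the 6 elemental libraries lay below the conventional mean. Its log2 fold change was -0.34 ± 0.10 (SE), with an edgeR adjusted p of 0.0365. The gene (ENSMUSG00000020368) lies at chr11:50293961-50325673 of GRCm38 on the minus strand. The call was lost in 8 of 12 fits without 1 library (conventional 1, 2, 4 and 5, elemental 1, 4, 5 and 6), with adjusted p-values up to 0.0824.

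Hspa5, the central luminal chaperone BiP that also holds the sensors inactive, ran from 170 to 318 CPM with a median of 260 on the conventional diet, and from 158 to 241 CPM with a median of 203 on the elemental diet. The estimate was -0.33 ± 0.14 with an edgeR adjusted p of 0.116, so it did not pass the test, and all 6 elemental libraries were below the conventional mean. Hsp90b1, the ER paralog of HSP90, ran from 30.5 to 73.3 CPM (median 58.0) on the conventional and from 27.4 to 47.5 CPM (median 44.1) on the elemental diet. Its estimate was -0.36 ± 0.19 (adjusted p = 0.194 by edgeR). Hyou1, a large nucleotide exchange partner of BiP, had -0.44 ± 0.21 (adjusted p = 0.154 by edgeR). Calr, the soluble partner of calnexin, had -0.08 ± 0.08, with an interval of the log2 difference from -0.23 to 0.08 at 95%.

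Conventional replicate 6 was the lowest of its group for 10 of the 36 members, among them Hspa5, Hsp90b1, Hyou1, Canx and Pdia4, and the highest for 22, among them Calr, P4hb and 6 of the 7 translocation genes. Without it, 6 members were higher and 8 lower by edgeR, and Hspa5 (-0.43), Hsp90b1 (-0.48) and Hyou1 (-0.57) were among the lower ones, with adjusted p-values of 0.0143, 0.0271 and 0.0147. Its epithelial marker sum, 1357 CPM, was the highest of its group, and the part of that in these values was not tested. Over all genes, 3865 were then called in place of 2081.

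Among the co-chaperones and small luminal proteins, 1 of 6 was called. Dnajb9, the J-domain protein ERdj4 that delivers clients to degradation, ran from 37.9 to 47.0 CPM (median 43.2) on the conventional and from 48.1 to 64.3 CPM (median 53.3) on the elemental diet. The groups did not overlap. The gene (ENSMUSG00000014905) lies at chr12:44205559-44210326 on the minus strand. Its log2 fold change was 0.34 ± 0.09 with an edgeR adjusted p of 0.0209, and with reads of a single match it was 0.32 ± 0.10 (adjusted p = 0.0317). The call was lost without conventional replicate 4 or 5, at adjusted p-values of 0.0540 and 0.0518. Dnajb11, Dnajc3, Sdf2l1 and Creld2 had estimates between -0.22 and -0.06, and the secreted factor Manf had 0.20 ± 0.11. None of these 5 passed the test.

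The folding enzymes moved apart. Pdia4, a disulfide isomerase with several thioredoxin-like domains, had 27.5 to 59.3 CPM (median 44.3) on the conventional and 18.6 to 34.5 CPM (median 27.1) on the elemental diet. The groups overlapped through conventional replicate 6 at 27.5 CPM, and all 6 elemental libraries lay below the conventional mean. The log2 fold change was -0.67 ± 0.18, the largest of the 5 called, with an edgeR adjusted p of 0.0217, and it was called in all 12 fits that left out 1 library. The gene (ENSMUSG00000025823) lies at chr6:47796141-47813430 on the minus strand. P4hb, the classical protein disulfide isomerase, had 259 to 368 CPM (median 297) on the conventional and 351 to 436 CPM (median 373) on the elemental diet. Its groups overlapped, though all 6 elemental libraries lay above the conventional mean. The gene (ENSMUSG00000025130) lies at chr11:120560298-120573253 on the minus strand. The log2 fold change was 0.31 ± 0.09, with an edgeR adjusted p of 0.0375. That call was lost in 9 of 12 fits without 1 library (conventional 1 to 4, elemental 1 and 3 to 6), with adjusted p-values up to 0.0920. Pdia3 (-0.09 ± 0.07), Pdia6 (-0.11 ± 0.08) and Ppib (0.10 ± 0.12) did not pass the test.

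**Figure D3:**
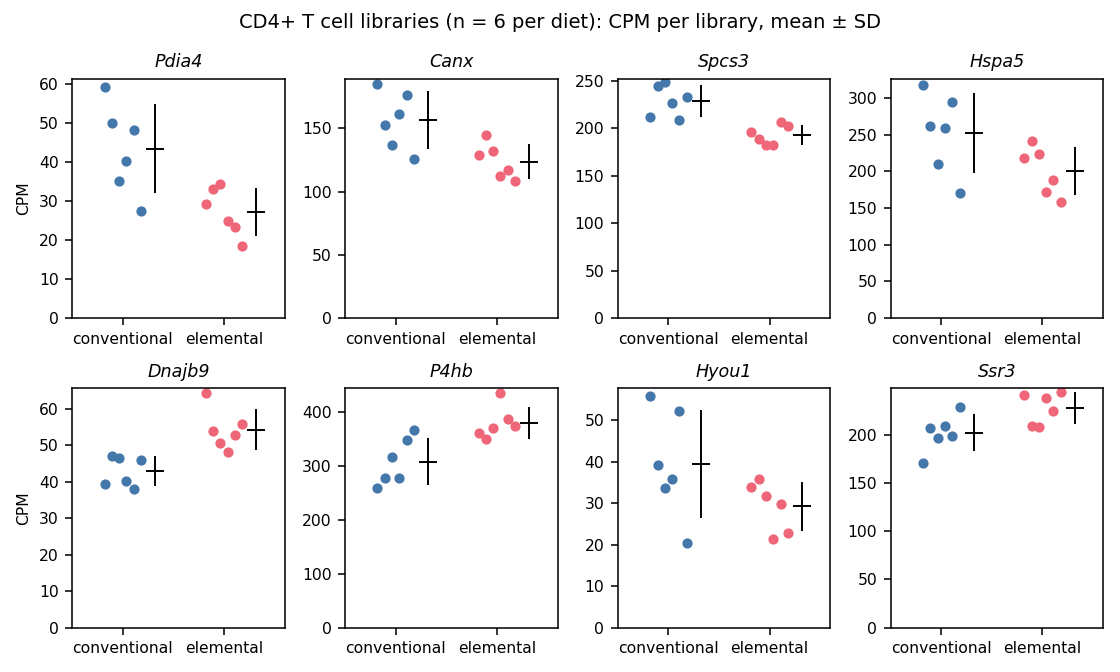
CPM in each CD4+ library for the 5 called genes Pdia4, Canx, Spcs3, Dnajb9 and P4hb and for Hspa5, Hyou1 and Ssr3, on linear axes from 0; the black mark and bar are the mean and SD of each diet (n = 6). Only Spcs3 and Dnajb9 show no overlap between the diets.

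Neither sensor passed the test. Ern1, whose product cuts the Xbp1 messenger, ran from 6.57 to 13.8 CPM (median 9.06) on the conventional and from 6.52 to 13.6 CPM (median 9.98) on the elemental diet, with a log2 fold change of 0.04 ± 0.24 and an edgeR adjusted p of 0.908. The diets overlapped over nearly the whole range. Atf6, a membrane-bound factor cut free under stress, ran from 4.57 to 12.9 CPM (median 7.68) on the conventional and from 2.83 to 6.16 CPM (median 4.88) on the elemental diet, with -0.77 ± 0.26 and an edgeR adjusted p of 0.0524. Atf6 has a long messenger of 7246 bases, and its estimate was -0.47 ± 0.20 (edgeR adjusted p = 0.111) when exon length was taken into account as described further on. It was called lower by DESeq2 (adjusted p = 0.0255), with intron reads included (-0.67, adjusted p = 0.0388 by edgeR), and without conventional replicate 3 or 6 or elemental replicate 2.

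None of the 7 degradation genes was called. Syvn1, the ubiquitin ligase HRD1, had -0.36 ± 0.15 (adjusted p = 0.0959 by edgeR), and its partner Sel1l had -0.16 ± 0.13. The other 5 lay between -0.07 for the mannosidase-like Edem1 and 0.17 for Herpud1, which gathers the ligase complex.

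The translocation genes had 6 of 7 estimates above 0, with a median log2 difference of 0.13, and none was called. Ssr3, a subunit of the translocon-associated protein complex, had 0.17 ± 0.08 (adjusted p = 0.142 by edgeR), with all 6 elemental libraries above the conventional mean. Sec61a1 was the exception at -0.11 ± 0.07. In the signal peptidase, Spcs3 ran from 209 to 249 CPM (median 229) on the conventional and from 182 to 207 CPM (median 192) on the elemental diet, with no overlap. The gene (ENSMUSG00000054408) lies at chr8:54520433-54529998 on the minus strand. Its log2 fold change was -0.24 ± 0.07 (adjusted p = 0.0289 by edgeR), and the call was lost in 5 of 12 fits without 1 library (conventional 2 to 4, elemental 3 and 4). Its partner Spcs2 pointed the other way, at 0.23 ± 0.10 (adjusted p = 0.107 by edgeR), and Spcs1 and Sec11c had 0.05 ± 0.12 and 0.13 ± 0.12.

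Fold changes ran with exon length in this comparison. Over all genes tested, Spearman's rho between exon length and log2 fold change was -0.36 (n = 11938 genes, which are not independent), and the median log2 fold change went from 0.25 for genes of at most 500 bases to -0.38 for genes over 10000 bases. Over the 36 members rho was -0.33. Within single libraries, rho between exon length and a gene's deviation from its mean ran from -0.39 to 0.50 on the conventional diet, where replicate 6 was lowest and replicate 1 highest, and from -0.40 to 0.05 on the elemental diet. With a smooth length offset per library, chosen after seeing the data, 4 members were called: Pdia4 (-0.73), Canx (-0.22), Dnajb9 (0.30) and P4hb (0.30) stayed past the threshold, and Spcs3 did not (-0.19, adjusted p = 0.103 by edgeR). All 5 chaperones kept estimates below 0 with a median of -0.25, whereas the translocation genes had 4 of 7 above 0 with a median of 0.02. The count of translocation genes above 0 thus depended on this offset. The cause of the relation with length was not tested.

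**Figure D4:**
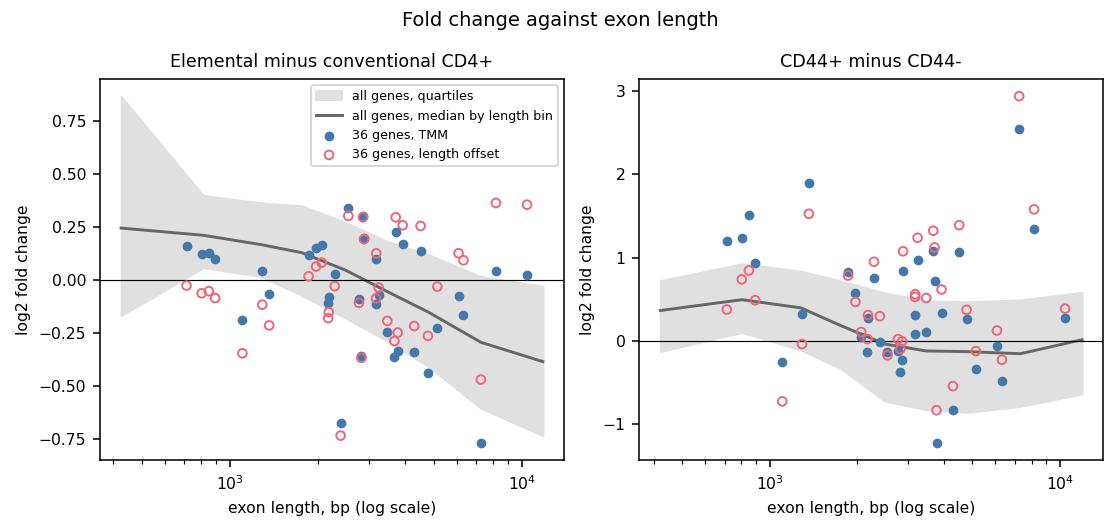
Log2 fold change against exon length in bases (log axis) for both comparisons: the grey line and band are the median and quartiles of all genes by length bin, filled points are the 36 genes with TMM scaling, and open circles the same genes with a length offset. In the diet comparison the grey line falls from 0.25 to -0.38, and the offset moves short genes down and long genes up.

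Set against the promoters printed above, the 10 members with either ERSE letter pattern had a median log2 fold change of -0.16 on the elemental diet, with 9 of 10 below 0; Herpud1 was the exception. The 18 members whose promoter held neither pattern had a median of 0.07, with 5 below 0. With the length offset the medians were -0.20 and 0.08. The 10 include 4 of the 5 chaperones, whose estimates below 0 are given above, so this count in part repeats that one. Calr, Creld2 and Dnajb11 lay within 1 SE of 0. The 8 members without a window had 4 estimates above and 4 below 0. Only Canx among the 10 was called, so this describes estimates and not tested changes. In the CD44 comparison the same 10 genes split into 5 above and 5 below 0, with a median of -0.04. With the length offset 6 were above and 4 below, with a median of 0.07. The 18 members with neither pattern had 11 above and 7 below 0 there, with a median of 0.33 (0.38 with the length offset). None of the 10 and 1 of the 18 was called in that comparison. All 8 members without a window had estimates above 0 there, with a median of 0.57, and none was called.

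Other genes of the pathway, 113 outside the 36, showed a like share of calls: 8 of 109 tested were higher and 6 lower (12.8%). The split was 5 and 6 with library totals alone, 5 and 7 with DESeq2 size factors and 5 and 5 with the length offset. Atf4, the transcription factor translated under PERK and amino acid stress signalling, rose from 50.4 ± 3.5 to 71.4 ± 8.6 CPM (SD, n = 6), with no overlap. Its log2 fold change was 0.50 ± 0.09 (adjusted p = 0.00217 by edgeR). Ddit3, the factor CHOP downstream of ATF4, had 0.51 ± 0.22 (adjusted p = 0.116 by edgeR), with all 6 elemental libraries above the conventional mean. Xbp1, the factor spliced by IRE1, was at 135 ± 15 and 135 ± 11 CPM, with -0.01 ± 0.09 and an interval from -0.18 to 0.16. Eif2ak3, which encodes PERK, had -0.43 ± 0.25 (adjusted p = 0.232 by edgeR). Also higher were Mcfd2 (0.47), Cnpy3 (0.38), Rnf5 (0.35), Creb3 (0.32) and Aup1 (0.30). Derl3, a degradation gene typical of secretory cells, fell by 1.86 on the log2 scale (SE 0.36), from 6.75 ± 2.86 to 1.86 ± 0.79 CPM. Vcp, the ATPase that extracts proteins from the ER membrane, fell by 0.54 (SE 0.12), with no overlap. Sec16a (-0.82), the ATF6-cleaving protease gene Mbtps1 (-0.51), Prkcsh (-0.35) and Magt1 (-0.29) were lower too.

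Markers of secretory cells moved with the diet. The 7 plasma cell markers summed to 892 to 1966 CPM on the conventional and to 306 to 771 CPM on the elemental diet. Of the 7, 4 were called lower. Sdc1 (0.17 ± 0.18) and Prdm1 (0.04 ± 0.41), named after their values were seen, had estimates above 0 and were not called. By means, most of the sum was Jchain (1263 of 1487 CPM on the conventional and 475 of 574 CPM on the elemental diet). Jchain, the joining chain of secreted antibodies, was at 1263 ± 394 CPM on the conventional and 475 ± 207 CPM on the elemental diet (-1.41 ± 0.32 on the log2 scale, adjusted p = 0.0127 by edgeR), and Mzb1, a plasma cell ER chaperone partner, fell by 1.46 (SE 0.25). Cd79a of the B cell receptor had -0.63 ± 0.25 (adjusted p = 0.0991 by edgeR). The 16 epithelial markers summed to 96.0 to 1357 CPM on the conventional and 1219 to 2542 CPM on the elemental diet, with 8 of 16 higher, Epcam among them (1.79 ± 0.42, adjusted p = 0.0142 by edgeR). The 13 markers of secretory epithelium went from 20.5 to 562 CPM up to 144 to 1288 CPM with 3 of 12 tested higher, and the 15 myeloid markers from 299 to 497 up to 710 to 1590 CPM with 14 of 15 higher. The 14 B cell markers summed to 440 to 827 and 290 to 595 CPM, with 3 of 14 lower. The 5 germinal centre B cell markers summed to 79.1 to 157 and 27.7 to 38.5 CPM, with 5 of 5 lower and a median of -3.05. The 20 cell cycle genes summed to 799 to 991 and 533 to 698 CPM, with 18 of 19 tested lower and a median of -1.10. Of the 13 alpha-beta T cell markers, 4 were lower and none higher by edgeR, with a median of -0.22, and Cd3e had -0.22 ± 0.08 (adjusted p = 0.0791 by edgeR). The 4 were Cd28 (-0.47), Cd6 (-0.52), Cd5 (-0.35) and Zap70 (-0.25), named after their values were seen. The part of these other cells in the member values was not tested. In bulk libraries, fewer cells of a type and less RNA per cell cannot be told apart.

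Between CD44+ and CD44- T cells, all 7 translocation and all 4 signal peptidase members were higher in estimate and 3 of the 5 chaperones were lower, and a single member passed the test. Ssr4, the delta subunit of the translocon-associated protein complex, rose, and it was 1 of 36 members (2.78%) against 0.767% of the 8343 genes tested. The median log2 fold change, positive where CD44+ is higher, was 0.30 over the members and 0.03 over all genes. Above 0 were 24 members and 4260 of all genes, and below it 12 members and 4083 of all genes. At an unadjusted edgeR p under 0.05 there were 7 higher and 2 lower members, against 475 higher and 639 lower of the 8343 genes. The members summed to 4727 to 6127 CPM in CD44- and 6139 to 8978 CPM in CD44+ libraries. The ranges lie next to each other without overlap, and how often sums of other gene sets part was not counted. Abundant genes weigh most in the sum, such as Sec61g with means of 717 CPM in CD44- and 1068 CPM in CD44+ libraries. The 5 chaperones had a lower mean sum in CD44+ (820 CPM) than in CD44- libraries (1273 CPM). The other pathway genes summed to 8780 to 10800 CPM in CD44- and 8584 to 14580 CPM in CD44+ libraries, which overlap.

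Ssr4 ran from 104 to 305 CPM (median 250) in CD44- and from 397 to 776 CPM (median 531) in CD44+ libraries. The groups did not overlap, and all 7 CD44+ libraries lay above each CD44- library. The gene (ENSMUSG00000002014) lies at chrX:73787028-73790830 of GRCm38 on the plus strand. The log2 fold change was 1.23 ± 0.27 with an edgeR adjusted p of 0.0378. That call was lost in 8 of 14 fits without 1 library (CD44+ 4 to 8, CD44- 1, 4 and 7), at adjusted p-values up to 0.0852. It was also lost with DESeq2 size factors (0.0605) or no filter (0.0563), and with the length offset the estimate was 0.74 ± 0.26 (adjusted p = 0.224 by edgeR). Ssr4 has a short messenger of 802 bases, and genes of 500 to 1000 bases had a median log2 fold change of 0.50 in this comparison.

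All 7 translocation genes had estimates above 0, with a median of 0.57, and also with the length offset, at a median of 0.53. Ssr2, the beta subunit of the same complex, had 216 ± 87 CPM in CD44- and 382 ± 107 CPM in CD44+ libraries (SD, n = 7), with 0.82 ± 0.31 (adjusted p = 0.237 by edgeR). Sec61b had 1.20 ± 0.70, but CD44+ replicate 8 held 593 CPM while the next highest held 113, and without that library the estimate was 0.04. Smaller estimates were those of Sec61g (0.57 ± 0.34), Ssr3 (0.34 ± 0.30), Ssr1 (0.28 ± 0.27) and Sec61a1 (0.08 ± 0.58). With library totals alone, with intron reads included and in 7 of the 14 fits without 1 library, 6 of 7 were above 0.

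The 4 signal peptidase genes were all above 0 in estimate and none was called; with the length offset, with intron reads included and in 4 of the 14 fits without 1 library, 3 of 4 were. Sec11c, a catalytic subunit, ran from 27.4 to 69.8 CPM (median 55.2) in CD44- and from 71.5 to 456 CPM (median 94.9) in CD44+ libraries, with no overlap. Its log2 fold change was 1.51 ± 0.48 (adjusted p = 0.145 by edgeR, 0.0346 by DESeq2). CD44+ replicate 8 was the highest library, and without it the estimate was 0.89. Spcs2 had 0.72 ± 0.50, and as little as 0.11 in a fit without 1 library. Spcs1 had 0.32 ± 0.27 and Spcs3 had 0.11 ± 0.57.

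Of the 5 chaperones, 3 had estimates below 0 and 2 above, and none passed the test. Their median was -0.38, and -0.10 with the length offset. Hspa5 ran from 114 to 868 CPM (median 220) in CD44- and from 89.5 to 242 CPM (median 137) in CD44+ libraries, with -1.22 ± 0.45 (adjusted p = 0.228 by edgeR) and from -1.39 to -0.82 without 1 library. CD44- replicates 1 and 2 stood high at 652 and 868 CPM, and the other 5 ranged from 114 to 241 CPM. Canx ran from 367 to 938 CPM (median 582) and from 199 to 514 CPM (median 363), with -0.83 ± 0.28 (adjusted p = 0.185 by edgeR) and all 7 CD44+ libraries below the CD44- mean. Hsp90b1 ran from 57.4 to 172 CPM (median 116) in CD44- and from 60.1 to 106 CPM (median 93.2) in CD44+ libraries, with -0.38 ± 0.36. Calr (0.28 ± 0.34) and Hyou1 (0.26 ± 0.71) had estimates above 0.

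**Figure D5:**
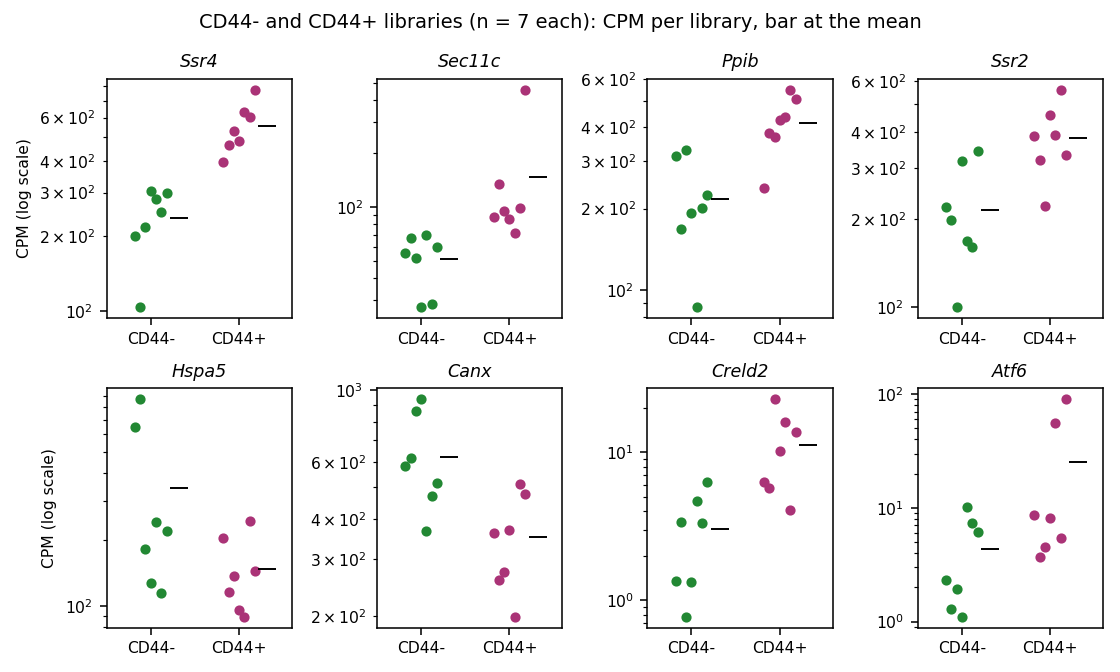
CPM in each CD44- and CD44+ library (n = 7 each) for 8 of the genes, on log axes that differ between panels; the bar marks the mean. Ssr4 and Sec11c show no overlap between the groups, Hspa5 in CD44- libraries spreads from 114 to 868 CPM, and Atf6 in CD44+ libraries has its 2 highest points at 55.1 and 90.2 CPM.

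The remaining roles held no call. Ppib had 217 ± 84 CPM in CD44- and 414 ± 101 CPM in CD44+ libraries, with 0.93 ± 0.30 (adjusted p = 0.162 by edgeR), and the other 4 folding enzymes lay between -0.23 and -0.02. Creld2, a stress-induced disulfide isomerase, was at 3.02 ± 2.02 and 11.3 ± 6.7 CPM with 1.90 ± 0.70 (adjusted p = 0.227 by edgeR, 0.0211 by DESeq2), and the other 5 of its role ranged from -0.33 for Dnajc3 to 0.97 for Dnajb11. Among the degradation genes, Derl2, a channel-like membrane protein, had 1.06 ± 0.46 (adjusted p = 0.322 by edgeR), Syvn1 had 1.08 ± 0.61 and Sel1l had -0.48 ± 0.77. Derl1, Edem1, Edem2 and Herpud1 lay between -0.06 and 0.75.

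The sensors were measured on few exon reads here. Atf6 ran from 1.10 to 10.1 CPM (median 2.30) in CD44- and from 3.66 to 90.2 CPM (median 8.12) in CD44+ libraries, with 2.54 ± 0.92 (adjusted p = 0.221 by edgeR, 0.0351 by DESeq2). CD44+ replicates 6 and 8 stood high at 55.1 and 90.2 CPM, and the groups overlapped. Introns held 90.8% and 73.0% of the Atf6 gene reads in these groups, and with intron reads included the estimate was 0.90 ± 0.67. Ern1 ran from 0.55 to 20.8 CPM (median 2.42) and from 1.08 to 53.3 CPM (median 1.63), with 1.35 ± 1.06 (adjusted p = 0.650 by edgeR). The CD44+ median lies below the CD44- median, and CD44+ replicate 5 stood high at 53.3 CPM. Without that library the estimate was 0.09, and without CD44- replicate 7 it was 2.57.

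Of the other pathway genes, 0 of 101 tested were called by edgeR and 5 by DESeq2, with 7 higher and 7 lower at an unadjusted edgeR p under 0.05. The 16 tested that serve entry into the ER, such as signal recognition particle subunits, had 7 estimates above 0 and 9 below, with a median of -0.18. Xbp1 was at 10.3 ± 8.3 CPM in CD44- and 44.4 ± 25.6 CPM in CD44+ libraries (SD, n = 7), with 2.10 ± 0.70 (adjusted p = 0.178 by edgeR) and all 7 CD44+ libraries above the CD44- mean. Atf4 had -1.28 ± 0.71 and Ddit3 had -0.15 ± 1.00, and Eif2ak3 did not pass the filter on low counts.

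Plasma cell markers moved with CD44 as well, in the direction opposite to the diet. They summed to 437 to 3138 CPM in CD44- and to 3841 to 8120 CPM in CD44+ libraries, with 2 of 6 tested higher and Tnfrsf17 at 0 in all CD44- libraries (0 reads allow up to 0.224 to 0.378 CPM, counting 3 reads). Jchain rose from 1003 ± 937 to 5020 ± 1420 CPM (2.32 ± 0.46, adjusted p = 0.0193 by edgeR) and Mzb1 from 93.5 ± 78.0 to 560 ± 221 CPM (2.58 ± 0.48, adjusted p = 0.0122 by edgeR). Cd79a had 1.55 ± 0.44 (adjusted p = 0.108 by edgeR), and the B cell markers summed to 320 to 1599 and 680 to 2558 CPM. The myeloid markers summed to 157 to 853 and 758 to 1342 CPM, with 1 of 13 tested higher. Epithelial markers were low, at 88.7 to 687 and 124 to 479 CPM, with Alpi at 0 in all 14 libraries and Cldn7 (CD44-), Sis and Cldn3 (CD44+) at 0 in 1 group. Epcam had at most 1.17 CPM in a CD44- and 2.91 CPM in a CD44+ library. The 5 germinal centre B cell markers summed to 3.98 to 165 and 102 to 308 CPM, with 4 of 4 tested above 0 and none called. The cell cycle genes summed to 229 to 618 and 474 to 847 CPM, with 0 of 18 tested called by edgeR. At an unadjusted p under 0.05, 7 of them were higher and 0 lower. Of the 13 alpha-beta T cell markers, 7 had estimates below 0 with a median of -0.45, and none was called by edgeR (unadjusted p under 0.05: 1 higher, 3 lower). Cd3e had 0.70 ± 0.28 (adjusted p = 0.279 by edgeR). The part of these cells in the member values was not tested.

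Side by side, 16 members had higher estimates in both comparisons, which share no library, and 10 had lower estimates in both. Another 8 were lower on the elemental diet and higher in CD44+ cells, and 2 were the reverse. Canx was called lower with the diet and had -0.83 with CD44, while Pdia4 had -0.67 and -0.02, Dnajb9 had 0.34 and -0.13, P4hb had 0.31 and -0.23, and Spcs3 had -0.24 and 0.11. Ssr4 had 0.13 with the diet and 1.23 with CD44. No test of the difference between the comparisons was made, and shared signs were not counted over all genes. Over all genes, Spearman's rho between log2 fold change and exon length was below 0 in both comparisons (-0.36 for the diet, -0.16 for CD44). The part of exon length in the shared signs was not tested.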

How the data were processed

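Each of the 26 deposited tables holds the authors' whole-number counts of reads per gene, per the file headers: reads in exons, introns and junctions and over the gene, each also as reads of a single match. The submitters' processing notes name GRCm38 as the build. The sources used here name no aligner or counting program. The column of all exon reads was taken, and 3759 genes with a deposited exon length of 0 were left out. Only the 2 groups of a comparison entered its fit, made in R 4.3.3 with edgeR 4.0.16 (filterByExpr, TMM, robust quasi-likelihood test, two-sided), with Benjamini-Hochberg adjustment over all genes tested and calls at an adjusted p under 0.05. The standard error is the log2 fold change over the square root of F. Alternatives used DESeq2 1.42.0, limma 3.58.1, other scalings, other read columns, a replicate block and leaving out libraries, and the fitting code was tested on simulated data. The labels give no sequencing batch. Tables used Python 3.11.15, pandas 2.3.3 and matplotlib 3.10.9.

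The members and gene lists were chosen with earlier results of these data known. All 36 members are accounted for. Values by library are given for called members without overlap and for Hspa5, Hsp90b1, Ern1 and Atf6. Of the other pathway genes, Xbp1, Atf4, Ddit3 and Eif2ak3 are named, plus up to 6 called per direction with the largest fold change and mean log2 CPM of 2 or more, and of markers Jchain, Mzb1, Cd79a, Epcam and Cd3e. The other members and the genes Cd4 and Cd44 were chosen for values by library or group after their values were seen. Of 114 listed pathway genes 113 matched by symbol.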

Additional observations from a re-analysis of the deposited data

Results flagged for a closer look

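Each member was tested in each group for a highest or lowest library set apart from the others by Dixon's gap at 95%, in 144 tests. In 16 of these a library stood apart, with 3 in the conventional, 1 in the elemental, 6 in the CD44- and 6 in the CD44+ group. A rate by chance of about 1 in 20 holds for normally distributed values and separate tests. Members share libraries and their CPM varied widely in the CD44 groups, so that rate cannot be applied here. Of the 16, 3 fall on conventional replicate 6, with Syvn1 low at 18.9 CPM and with Derl1 at 316 and Ssr2 at 202 CPM high. In elemental replicate 4, Hsp90b1 was low at 27.4 CPM.

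CD44+ replicate 8 was high for 4 members: Sec61b at 593, Spcs2 at 572, Sec11c at 456 and Edem2 at 25.9 CPM. Spcs1 stood at 1346 CPM in CD44+ replicate 6 and Ern1 at 53.3 CPM in CD44+ replicate 5. In the CD44- group, replicate 6 was high for Dnajb9 at 80.8 and Sdf2l1 at 24.3 CPM. Single high values were Pdia4 at 129 CPM in CD44- replicate 2, P4hb at 206 CPM in replicate 5, Ern1 at 20.8 CPM in replicate 7 and Edem2 at 13.9 CPM in replicate 1.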

How the results depend on the processing

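In the diet comparison, 5 members were called (2 higher, 3 lower). The count was 3 with library totals alone (0 higher, 3 lower; this scaling moved the median log2 fold change of all genes from -0.01 to -0.13), 12 with limma-voom quality weights, 11 without conventional 6 and elemental 1 together, and 0 with all 4 groups in 1 fit, where the spread is shared with the CD44 libraries. For the other pathway genes (14 called) these counts were 41 with voom, 34 without both libraries, 0 with all groups and 7 with no filter, and for all genes (2081 called) 4095, 3379 and 2 with voom, without both libraries and with all groups. With library totals, 898 genes were higher and 1097 lower, against 1156 and 925. Leaving out 1 library gave 1 to 14 members: 3 without conventional 1 or 5 or elemental 1, 3, 5 or 6, 2 without conventional 2 or elemental 4, 1 without conventional 4 and 14 without conventional 6. It gave 5 to 42 other pathway genes (42 without conventional 6) and 1299 to 3865 genes (1299 without conventional 4, 1316 without elemental 4, 3865 without conventional 6). In the CD44 comparison, 1 member was called, against 0 with DESeq2 size factors in edgeR, no filter or the length offset, 4 with DESeq2's test (all higher: Ssr4, Sec11c, Creld2 and Atf6) and 9 with all 4 groups. The other pathway genes (0 called) gave 5 with DESeq2 and 16 with all groups, and all genes (64 called) gave 392 with DESeq2, 101 with total gene reads and 1748 with all groups. The 64 split into 25 higher and 39 lower, against 15 and 41 with the length offset, which was chosen after seeing the data. Leaving out 1 library gave 0 to 1 members and 36 to 87 genes (36 without CD44+ 5 or 7, 37 without CD44+ 6, 41 without CD44- 4). The labels do not say whether replicate numbers pair libraries, and they were treated as not pairing them: same-numbered libraries correlated from -0.14 to 0.27 (diet) and from -0.04 to 0.12 (CD44), and 2 of 6 and 1 of 7 correlated best with their own number. With a replicate block, 4 members, 15 other pathway genes and 2033 genes were called for the diet, and 0 members and 37 genes for CD44; Spcs3 (adjusted p = 0.0568) and Ssr4 (0.0760) were then not called. Of the single-member values, 6 changed sign by the rule used. That rule did not count a change of sign where the main estimate lay within 1 SE of 0 and neither fit called the member. Dnajb9 for CD44 is such a case, with -0.13 in the main fit and up to 0.58 without 1 library. The 6 were as follows. With the length offset, the diet estimates were 0.0949 for Sel1l, -0.0244 for Sec61b and -0.0506 for Sec11c, and the CD44 estimate was -0.0363 for Spcs1. With library totals Derl1 had -0.0004 for the diet, and with total gene reads Manf had -0.12 for CD44. Another 46 lost and 38 gained a call. The other 1602 kept their side of the threshold, and their direction too apart from the changes of sign that were not counted. The cause of these changes was not tested. Depth limits the sensors in the CD44 libraries, where a member had as few as 5 reads.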
